A study of Mus musculus with 6 samples.

Results

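Embryonic liver cells sorted for ALCAM were split once by ITGA8 and once by PDPN, and the fractions described here are the ones with the higher Itga8 signal of each sort: ALCAM+ ITGA8+ cells and ALCAM+ PDPN- cells. They are 2 of the 6 arrays of the series, 1 array each, and they were set against each other to see what a positive sort on integrin alpha 8 and a negative sort on podoplanin have in common and where they part. Both fractions came from E12.5 livers of C57Bl6 mice with a wild-type genotype, and no treatment is named. The other arrays are whole liver cells, ALCAM+ cells, and the ALCAM+ ITGA8- and ALCAM+ PDPN+ fractions. How many embryos went into a fraction, whether embryos were pooled, and whether the 2 sorts used the same cell suspension is not stated in the labels. All 4 fractions therefore share the ALCAM gate, and a difference between ITGA8+ and PDPN- cells can belong to either antigen or to the sort as a whole. With 1 array in each group there is no spread between samples and no test, and every difference is one between 2 arrays.

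Hepatic stellate cells are mesenchymal cells that lie between hepatocytes and sinusoidal endothelium, store vitamin A as retinyl esters and become the main matrix-producing cells of the injured liver. In the embryo they share an origin in the septum transversum and coelomic lining with the mesothelium, the epithelium-like sheet that covers the liver and carries podoplanin. The fetal liver is also a main site of blood formation, so hepatoblasts, red cell precursors, megakaryocytes, macrophages and endothelium surround the stellate cells. ALCAM is an adhesion molecule of the immunoglobulin family, ITGA8 is the alpha subunit of a receptor for matrix ligands such as nephronectin, and PDPN is a mucin-like membrane glycoprotein.

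Values are array intensities on a linear scale. A difference is ITGA8+ minus PDPN- of log2(intensity + 16), and a fold is that difference taken out of the logarithm. A gene was represented by 1 probe set and was compared where the higher of its 2 arrays exceeded an intensity of 109, the median of all values on the 6 arrays, called the floor below. Median probe set intensity was 173 in ITGA8+ and 123 in PDPN-, and the 2 arrays had a Spearman correlation of 0.892 over 45037 probe sets. Of 13815 genes compared, 3826 were at least 2-fold higher in ITGA8+ cells, which is 27.7% of the genes, and 1961 were at least 2-fold higher in PDPN- cells, which is 14.2%. The remaining 8028 genes, 58.1%, lay within 2-fold. Over all genes the difference had a median of 0.25, a 1.19-fold shift toward ITGA8+ that the counts below contain unless they are given relative to it. Relative to that median the counts were 3127 and 2594, so that ITGA8+ held 54.7% of the 2-fold genes in place of 66.1%. Among genes higher in ITGA8+ the PDPN- value was below the floor for 1672, and the size of those folds depends on the pseudocount.

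**Figure D1:**
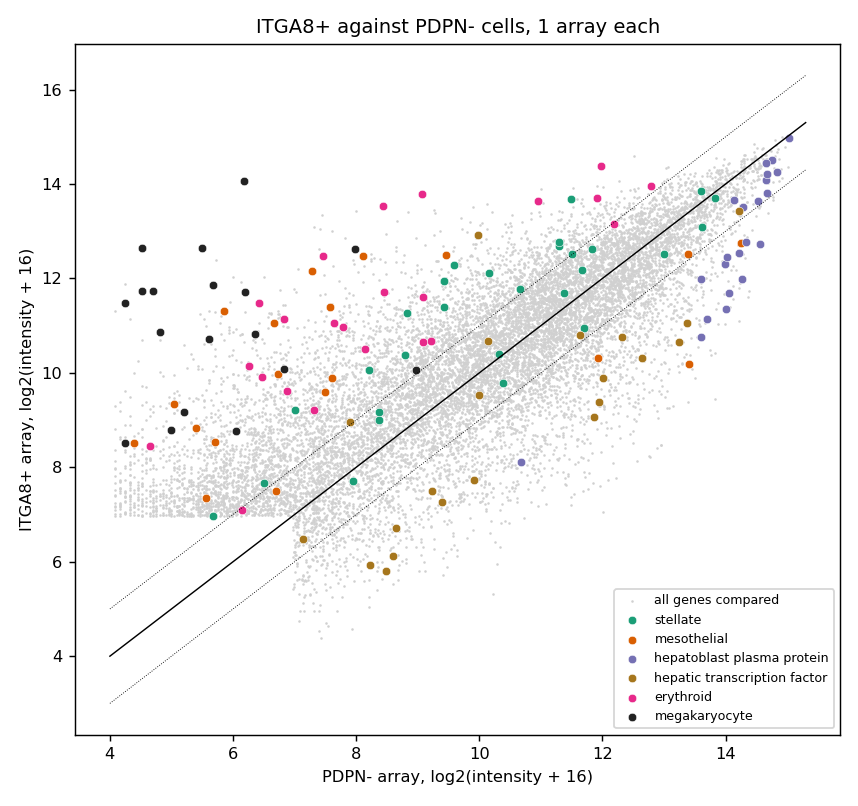
Intensity of each compared gene in the PDPN- array (x axis) and the ITGA8+ array (y axis), both as log2(intensity + 16), with members of 6 gene lists in colour, the line of equality and dotted lines at 2-fold. Megakaryocyte and erythroid genes lie above the upper dotted line for 18 of 18 and 21 of 23 members, and most hepatic genes lie below equality. Of 28 stellate genes 15 lie above the upper dotted line and none below the lower one.

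The sort antigens checked the labels only in part, and in a way that separates these fractions. Itga8 intensity was 4354 in ITGA8+, 871 in ITGA8-, 737 in PDPN+ and 2215 in PDPN- cells. It was the measure by which the pair was picked, so its place above the partner fraction in each sort is no finding, and the difference between ITGA8+ and PDPN- was 0.97. Pdpn was at 4658 in ITGA8+, 6176 in ITGA8-, 7746 in PDPN+ and 117 in PDPN- cells. The PDPN- array thus stood just above the floor for podoplanin while ITGA8+ cells carried its RNA at an intensity 35.1-fold higher, and a sort on ITGA8 did not remove podoplanin RNA. Lrat encodes the lecithin retinol acyltransferase that makes retinyl esters in stellate cells. Its intensity was 193 in ITGA8+, 36 in ITGA8-, 9 in PDPN+ and 231 in PDPN- cells, above the floor in the 2 fractions described and below it in both partners. Alcam was high in all 4, from 16996 in PDPN- to 22418 in ITGA8+ cells.

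The 2 ways of enrichment had 104 genes in common, 6 of them from the list of stellate genes. Over 12773 genes above the floor in both sorts, 614 genes, 4.81%, were at least 2-fold higher in ITGA8+ than in ITGA8- cells, and 917 genes, 7.18%, were at least 2-fold higher in PDPN- than in PDPN+ cells. These 2 splits share no array. The 104 genes in both lists are 16.9% of the ITGA8 list and 11.3% of the PDPN list. In the direct comparison, which uses an array of each split and so only describes them, 54 of the 104 lay within 2-fold, 27 were higher in ITGA8+ and 23 in PDPN-, with a median of 0.24 beside 0.25 for all genes. The number of shared genes depends on the processing: it was 68 with a pseudocount of 64 and 199 after quantile normalisation of the 4 fractions.

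Ordered by the smaller of their 2 enrichments, the shared genes included several with known roles in stellate cells or around vessels. Nr1h4, the bile acid receptor FXR, was at 720 in ITGA8+, 120 in ITGA8-, 95 in PDPN+ and 1003 in PDPN- cells. Abcc9, a potassium channel subunit of pericytes, was at 1742, 449, 484 and 1709 in the same order. Bmp5, a bone morphogenetic protein ligand, was at 867, 246, 165 and 1327. In each of these 3 genes both enriched fractions stood above both partner fractions, and the differences between ITGA8+ and PDPN- were -0.47, 0.03 and -0.60. Frzb, a secreted Wnt inhibitor, was at 350, 77, 38 and 233, and Prelp, a small leucine-rich proteoglycan, at 334, 86, 65 and 254, with the same order of groups. Sod3, the extracellular superoxide dismutase, was at 136, 1, 35 and 186, close to the floor in both enriched fractions. Hpca, a neuronal calcium sensor, and Tmem204, a membrane protein of vessels, were shared too but stood higher in ITGA8+ than in PDPN- cells, by 1.38 and 1.11, with next probe sets at -0.17 and 0.02. Dkk1, another Wnt inhibitor, was at 1010, 304, 86 and 699, but its next probe set differed by 2.38 where the one used differed by 0.52. AU023617, Lrat and Plvap, the last of which is described next, complete the 12 genes named by this order.

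Other shared genes differed between the pair. Plvap, of the diaphragms of fenestrated endothelium, was at 1840 in ITGA8+, 365 in ITGA8-, 88 in PDPN+ and 460 in PDPN- cells. Cyp1b1, a cytochrome that can metabolise retinoids, was at 8493, 3444, 403 and 823, with a difference of 3.34 in favour of ITGA8+. Eng, a TGF-beta co-receptor of endothelium and stroma, was at 746, 225, 26 and 169. All 3 were shared by the rule, yet their ITGA8- intensity was near or above the PDPN- one. In the other direction stood enzymes and transporters of hepatocytes, picked here after their values were seen. Bhmt, a liver enzyme of methionine metabolism, was at 5494, 2670, 7789 and 20294, and Plg, which encodes plasminogen, at 1552, 732, 1939 and 6675. Aldh8a1, Cbs, Ftcd and Abcc2 likewise had both enrichments past 2-fold and differences of -2.98, -1.54, -1.40 and -1.93. In Bhmt, Plg, Aldh8a1, Abcc2 and Cbs both PDPN fractions exceeded both ITGA8 fractions. A further 141 genes were at least 2-fold higher in ITGA8+ than ITGA8- and in PDPN+ than PDPN-, the opposite sides of the 2 sorts, and 30 were higher in ITGA8- and PDPN-.

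**Figure D2:**
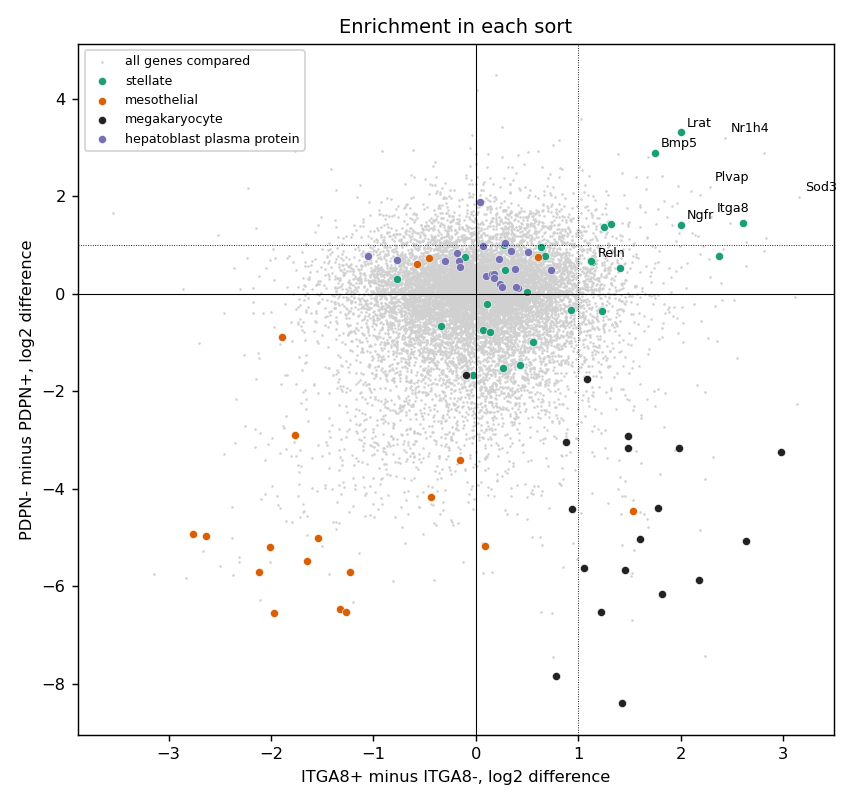
Log2 difference within the ITGA8 sort (ITGA8+ minus ITGA8-, x axis) and within the PDPN sort (PDPN- minus PDPN+, y axis) for each gene compared, with 4 gene lists in colour and dotted lines at 2-fold. The upper right corner past both lines holds the 104 shared genes, and further genes that were not above the floor in both sorts. Stellate genes with both enrichments, such as Lrat and Bmp5, sit there, whereas megakaryocyte genes sit at the lower right and most mesothelial genes at the lower left.

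Among stellate genes as a list, none was 2-fold higher in PDPN- cells and about as many were level as were higher in ITGA8+ cells. Of 30 genes listed, 28 were above the floor in ITGA8+, 27 in ITGA8-, 25 in PDPN+ and 26 in PDPN- cells. At least 2-fold higher in ITGA8+ were 15 of the 28, and 13 lay within 2-fold, with a median of 1.07, beside 27.7% and 0.25 for all genes. Relative to the all-gene median, 12 were higher and none lower, with a median of 0.82. The presence of these genes therefore does not set the 2 fractions apart from their partners, and both arrays also held hepatic genes, described below.

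The level stellate genes included several of the strongest signals. Reln encodes reelin, a secreted glycoprotein that marks stellate cells in the liver, and was at 13250 in ITGA8+, 6008 in ITGA8-, 9305 in PDPN+ and 14543 in PDPN- cells. Cxcl12, the chemokine that retains blood progenitors, was at 5827, 2438, 3185 and 8182. Angptl6, an angiopoietin-like secreted protein, was at 1331, 523, 461 and 1258. In all 3 the enriched fractions were the top pair, with differences of -0.13, -0.49 and 0.08 between them. Pdgfrb, a receptor of pericytes and stellate cells, ran from 1555 in PDPN+ to 3518 in ITGA8-, with no such order. Des, the muscle-type intermediate filament used to stain stellate cells in rodents, was at 562 in ITGA8+, 392 in ITGA8-, 306 in PDPN+ and 315 in PDPN-, a difference of 0.80. Of the stellate genes, 6 were 2-fold higher on the enriched side of both sorts, 11 in ITGA8+ against ITGA8-, 6 in PDPN- against PDPN+, and 4 were 2-fold higher in PDPN+ than in PDPN- cells.

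Stellate genes that stood higher in ITGA8+ cells included transcription factors, receptors and secreted proteins. Pdgfra, a platelet-derived growth factor receptor of mesenchyme, was at 13211 in ITGA8+, 9816 in ITGA8-, 7926 in PDPN+ and 2848 in PDPN- cells. Hand2, a basic helix-loop-helix factor of stellate cells, was at 4409, 3659, 3277 and 1129, and Hlx, a homeobox factor of liver mesenchyme, at 3925, 2656, 1359 and 675. These 3 were lowest in PDPN- cells, below its podoplanin-positive partner. With the median of its probe sets Hand2 came under 2-fold, at 0.78. Ecm1, an extracellular matrix protein that keeps TGF-beta latent, was at 5004, 5106, 2416 and 751, equal in the 2 ITGA8 fractions. A different order held for Ngfr, the p75 neurotrophin receptor, at 2466, 602, 154 and 436, for Lhx2, a LIM-homeobox factor whose loss causes liver fibrosis, at 1313, 595, 262 and 427, and for Gdf2, the ligand BMP9, at 6991, 1133, 894 and 2481. In these both enriched fractions exceeded their partners and ITGA8+ still exceeded PDPN-, by 2.46, 1.58 and 1.49. Adamtsl2 differed by 2.20, with its PDPN- intensity of 113 near the floor.

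Genes of general mesenchyme divided the pair more sharply than the stellate list. Of 19 mesenchymal and coelomic transcription factors above the floor, 16 were higher in ITGA8+ and none in PDPN- cells, beside 27.7% and 14.2% of all genes. The list median was 2.48, and 1.73 with the median of a gene's probe sets. Tbx18, a T-box factor of epicardium and coelomic lining, was at 612 in ITGA8+, 1713 in ITGA8-, 198 in PDPN+ and 10 in PDPN- cells. Twist1, a driver of mesenchymal identity, was at 3041, 3717, 412 and 213, and Foxc1 at 1098, 1059, 90 and 41. For these factors the ITGA8- array was close to or above ITGA8+, and both PDPN arrays were low. Gata4, which acts in hepatic mesenchyme and in hepatoblasts, was at 7689, 5522 and 5354 in the first 3 fractions and 7.64-fold lower in PDPN- than in ITGA8+ cells, with its next probe set at 0.52. Tcf21, a factor of visceral mesenchyme, and Nr2f2, an orphan nuclear receptor, lay within 2-fold at -0.36 and 0.29.

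Matrix genes were higher in ITGA8+ cells as well, with the main chains of type I and III collagen within 2-fold. Of 23 collagen and interstitial matrix genes 15 were higher in ITGA8+ and none in PDPN- cells, beside 27.7% and 14.2% of all genes, with a median of 1.81. The summed intensity of the list was 175537 in ITGA8+, 142175 in ITGA8-, 156408 in PDPN+ and 74793 in PDPN- cells. Mgp, the matrix Gla protein that inhibits calcification, was at 3939, 4324, 1043 and 194, and Ogn, a small leucine-rich proteoglycan, at 2530, 1127, 1117 and 157. Col1a1, of type I collagen, was at 19236, 16530, 20881 and 11581 and Col3a1 at 14293, 17058, 20710 and 7789, within 2-fold, although their next probe sets differed by 1.88 and 1.34. Dcn, which encodes decorin, was at -0.79, but its next probe set was at 1.60, so its direction was not settled. Among basement membrane genes 10 of 20 were higher in ITGA8+ and none in PDPN-, or 8 of 20 and none with the median of a gene's probe sets. They were led by Lama4, a laminin chain of vessels, at 1413, 969, 243 and 67. Npnt, the nephronectin ligand of ITGA8, was at 1282, 2696, 3775 and 320, higher in the partner of each fraction compared. With the median of its probe sets the difference between ITGA8+ and PDPN- was 0.64.

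Integrins, smooth muscle and portal fibroblast genes also had more members higher in ITGA8+ than in PDPN- cells. Of 10 integrins 5 were higher in ITGA8+ and none in PDPN-, beside 27.7% and 14.2% of all genes, among them Itga4, a subunit that binds VCAM1 and fibronectin, at 7886 in ITGA8+, 6466 in ITGA8-, 990 in PDPN+ and 341 in PDPN- cells. Itgav was at 13343 in ITGA8+ and 13358 in PDPN-, and Itgb1, the partner subunit of ITGA8, differed by -0.39. Of 15 smooth muscle and pericyte genes 6 were higher in ITGA8+, a share nearer that background, and 9, including Tagln at 0.36 and Acta2 at 0.99, were not. Portal fibroblast and stromal genes counted 11 higher in ITGA8+ and 2 higher in PDPN-. The latter were Vcam1, an adhesion receptor, at 3243, 2926, 7267 and 12695, and Nt5e, the ectonucleotidase CD73, at 302, 397, 1199 and 3630, both high in the 2 PDPN fractions.

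Secreted factor and retinoid genes had more members higher in ITGA8+ than in PDPN- cells. Of 28 growth factor genes 16 were higher in ITGA8+ and 4 in PDPN-, beside 27.7% and 14.2% of all genes, with a median of 1.60. The PDPN- count is near the share of all genes. Tgfb2 was at 9541 in ITGA8+, 8778 in ITGA8-, 3932 in PDPN+ and 390 in PDPN- cells, and Igf1 at 5859, 5348, 1402 and 286. Tgfb3 and Tgfb1 differed by 4.35 and 3.86 in the same direction. Among those higher in PDPN- were Gdf15, a stress-induced cytokine, at 133, 133, 683 and 2158, Thpo, the thrombopoietin gene, at 160, 174, 463 and 1039, and Kitl, the stem cell factor, at 1676, 2435, 5693 and 8159. In each of these 3 both PDPN fractions lay above both ITGA8 fractions. Of 14 retinoid genes 8 were higher in ITGA8+ and 2 in PDPN-, the PDPN- count again near the share of all genes. The median was 1.25, and 0.14 after a loess fit. Crabp2, which carries retinoic acid, led the ITGA8+ side at 2790, 3413, 1658 and 180. Bco1, which cleaves beta-carotene, and Rbp2 were higher in PDPN-, with differences of -3.09 and -2.49, while Lrat, described above, was level.

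Mesothelial genes were high in ITGA8+ and low in PDPN- cells for most of the list. Of 19 above the floor 14 were higher in ITGA8+ and 3 in PDPN-, beside 27.7% and 14.2% of all genes, with a median of 3.03. The PDPN- count is near the share of all genes. Without a floor the counts were 14 and 3 of 22, with a median of 2.55. Upk3b, a uroplakin of mesothelium, was at 4578 in ITGA8+, 11076 in ITGA8-, 14424 in PDPN+ and 139 in PDPN- cells. Bnc1, the transcription factor basonuclin, was at 2124, 8382, 9573 and 86, and Podxl, an anti-adhesive sialomucin, at 5650, 13258, 14427 and 261. In these genes ITGA8+ minus ITGA8- was -1.27, -1.97 and -1.23, but ITGA8+ was still 29.6-fold above PDPN- for Upk3b and 20.5-fold for Podxl, and Bnc1 was below the floor in PDPN-. Aldh1a2, which makes retinoic acid in the coelomic lining, was at 2509, 2363, 2082 and 42, and Wt1 at 5762, 6421, 7554 and 691, similar in the 3 fractions other than PDPN-. Below the floor in PDPN- cells were 9 members, and 14 were highest in PDPN+ cells, against 17.5% of all genes that were highest there.

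The mesothelial members 2-fold higher in PDPN- cells were Cdh1, Krt18 and Dpp4, a count near the share of all genes, and the reason was not tested. Cdh1, which encodes E-cadherin, was at 1142 in ITGA8+, 1570 in ITGA8-, 6593 in PDPN+ and 10883 in PDPN- cells, and Krt18, a simple-epithelium keratin, at 6825, 10141, 12766 and 19569. Dpp4, a surface peptidase, was at 1255, 4708, 7186 and 3890, highest in PDPN+ cells. Its difference of -1.62 was -0.42 with the median of its probe sets. Krt8 differed by -0.89 and Cdh3 by 0.79. Krt19, by contrast, was at 756, 4781, 5676 and 164, and Cldn15, a claudin, was listed at 9, 289, 445 and 1, under the floor in both fractions compared.

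**Figure D3:**
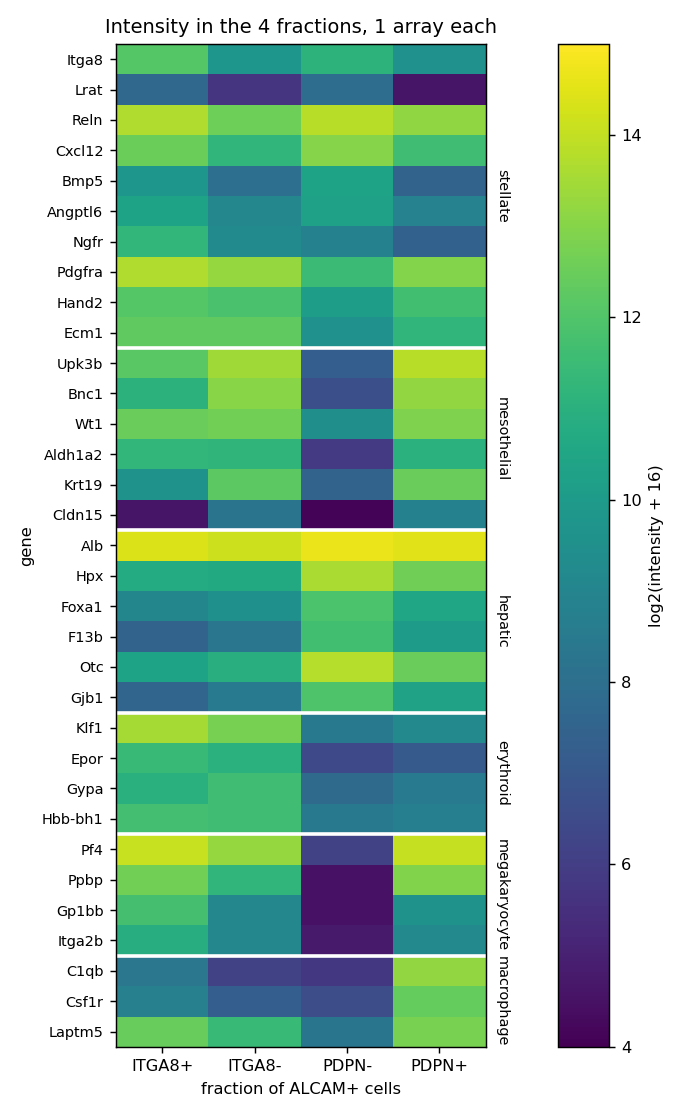
Intensity in the 4 fractions as colour, log2(intensity + 16), for genes of 6 groups, 1 array in each column. Some stellate genes, such as Reln and Lrat, are brightest in the ITGA8+ and PDPN- columns, whereas Pdgfra, Hand2 and Ecm1 are darkest in the PDPN- column. Mesothelial and megakaryocyte genes are darkest in the PDPN- column, with Cldn15 dark in the ITGA8+ column too. Erythroid genes are dark in both PDPN columns, and hepatic genes other than Alb are brighter in both PDPN columns.

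Hepatic genes were higher in PDPN- cells, and their lists had the lowest medians of the 30 lists examined. Over 4 hepatic lists (plasma proteins, transcription factors, coagulation and complement, metabolism) 89 members were above the floor, of which 64 were at least 2-fold higher in PDPN- and 4 in ITGA8+ cells, beside 14.2% and 27.7% of all genes. PDPN- was the highest of the 4 fractions for 81 of the 89, against 27.5% of all genes. Both PDPN arrays lay above both ITGA8 arrays for 70 of the 89, beside 20.5% of all genes, so the order of the sorts was the same for most of them. In bulk samples such as these, fewer cells of a type and less RNA per cell cannot be told apart.

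Alb and Afp hardly differed between the fractions, and other plasma protein genes did. Alb, the albumin gene, was at 22138 in ITGA8+, 18532 in ITGA8-, 23591 in PDPN+ and 25926 in PDPN- cells, and Afp, alpha-fetoprotein, at 31978, 24334, 30471 and 33456. They were thus among the strongest signals of every fraction, ITGA8+ included. Hpx, which encodes the haem scavenger hemopexin, was at 1727, 1644, 6284 and 12459, and Ahsg, fetuin A, at 2609, 2917, 10290 and 16444. The fibrinogen genes Fgb and Fga were at 6783, 8376, 15011 and 24018 and at 5963, 6638, 13017 and 19011. Of 22 plasma protein genes 12 were higher in PDPN- and none in ITGA8+, with a median of -1.57; relative to the all-gene median 15 were. The 8 hepatic members above an intensity of 10000 in all 4 fractions had a median of -0.52, and the other 81 a median of -1.98. That rule uses both arrays compared, so a gene low in ITGA8+ could not be among the 8. Fgb, at 24018 in PDPN- cells, was left out in this way, and the 2 medians do not show an effect of abundance. Whether array signals near the top of the range compress such differences was not tested.

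Hepatic transcription factors, clotting factors and enzymes had lower list medians than the plasma proteins but were less uniform in direction. Their highest differences were 2.93, 1.64 and 0.69, beside -0.07 among plasma proteins. Of 21 transcription factors 14 were higher in PDPN- and 2 in ITGA8+, with a median of -2.12. Foxa1, a pioneer factor of endoderm, was at 518 in ITGA8+, 724 in ITGA8-, 1404 in PDPN+ and 3714 in PDPN- cells, Cebpa, a driver of hepatocyte differentiation, at 1595, 1834, 4657 and 9649, and Prox1 at 2106, 3173, 8328 and 10545. Hnf4a, the central hepatocyte nuclear receptor, was at 11074, 8237, 13149 and 19091, a difference of -0.78 with -2.49 in its next probe set. Gata4, described above, was higher in ITGA8+. Of 22 coagulation and complement genes 19 were higher in PDPN-, led by F13b, a subunit of factor XIII, at 166, 300, 1059 and 3257, and F7 at 138, 165, 500 and 1541. The exceptions were Masp1, a protease of the lectin pathway, at 10640, 1885, 1239 and 3410, whose next probe set differed by -0.89, and C6 at 134, 96, 82 and 40, which after a loess fit of the difference on the mean signal lay at -0.26. Masp1 was also among the genes enriched on both sides.

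Enzymes of the urea cycle led the metabolic list. Ass1 and Otc, both of the urea cycle, were at 510 in ITGA8+, 1132 in ITGA8-, 2913 in PDPN+ and 7617 in PDPN- cells and at 1314, 1912, 5777 and 13843. Arg1, the last enzyme of that cycle, was at 149, 251, 279 and 1383. Of 24 metabolic genes 19 were higher in PDPN- and none in ITGA8+, with a median of -1.97, while Cps1, which feeds the cycle, was at 1697, 2218, 1009 and 1186. The urea cycle genes therefore did not all take the same order. Of 14 biliary and hepatoblast surface genes 7 were higher in PDPN-, led by Gjb1, the gap junction protein connexin 32, at 179, 341, 1283 and 3964. Dlk1, a hepatoblast surface protein, was at 24613, 20455, 24470 and 28433, and Sox9, a biliary factor, was the single member higher in ITGA8+ cells, at 1.12, or 0.87 relative to the all-gene median.

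The genes with the largest excess in PDPN- cells were also taken without regard to any list. Phlda2, an imprinted gene that restrains growth, was 31.0-fold higher, at 117 in ITGA8+, 363 in ITGA8-, 1378 in PDPN+ and 4103 in PDPN- cells. Car3, a carbonic anhydrase of liver, muscle and fat, was at 683, 637, 7060 and 14474, and Gsta3, a glutathione transferase, at 281, 486, 1989 and 6949. Timd2, a surface receptor of the TIM family, Apoc4, an apolipoprotein, and Angptl8, which regulates lipoprotein lipase, were 22.4-fold, 22.2-fold and 21.8-fold higher. Rbm47, an RNA-binding protein, was 22.2-fold and Nrn1, the neuritin gene, 21.6-fold higher. Gstm6, another glutathione transferase, was at 24, 37, 412 and 1178, below the floor in ITGA8+ cells. In all of these both PDPN arrays lay above both ITGA8 arrays. Tarbp2 did not share that order, at 285, 3500, 2196 and 6907, and its next probe set differed by only -0.66.

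Most megakaryocyte, erythroid, progenitor and macrophage genes above the floor were higher in ITGA8+ cells, in 3 patterns. Megakaryocyte genes were low in PDPN- cells alone, erythroid and progenitor genes were low in both PDPN fractions, and macrophage genes were low in both fractions compared and high in PDPN+ cells.

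Megakaryocyte genes had the largest folds of all lists. All 18 were at least 2-fold higher in ITGA8+ than in PDPN- cells, with a median of 5.31, and 16 were below the floor in PDPN-. Ppbp, a platelet chemokine, was at 6432 in ITGA8+, 2385 in ITGA8-, 7788 in PDPN+ and 7 in PDPN- cells, and Pf4, platelet factor 4, at 17111, 9917, 16547 and 56. Vwf, von Willebrand factor, was at 2835, 613, 1097 and 3, and Gp1bb, part of its platelet receptor, at 3395, 530, 760 and 7. All 18 were lowest in PDPN- cells, against 38.9% of all genes, and 15 were highest in ITGA8+ cells. The summed intensity of the list was 61996 in ITGA8+, 26774 in ITGA8-, 49659 in PDPN+ and 1224 in PDPN- cells. Fli1, an ETS factor that endothelium and blood progenitors also express, was the least different, at 1047, 1123, 1583 and 484. Clec1b, which encodes the platelet receptor for podoplanin, differed by 5.52.

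Erythroid genes were higher in ITGA8+ than in PDPN- cells for 21 of 23 members, with a median of 2.75 and none on the other side. In all 23 both ITGA8 arrays lay above both PDPN arrays, beside 33.4% of all genes. Klf1, the erythroid Krüppel-like factor, was at 11851 in ITGA8+, 6801 in ITGA8-, 559 in PDPN+ and 331 in PDPN- cells, and Ermap, an erythrocyte membrane protein, at 14162, 8693, 1297 and 523. Hbb-bh1, an embryonic globin gene, was at 3334, 3138, 416 and 334, with the reserve that globin probes can read close paralogs. Unlike the megakaryocyte genes, these were low in PDPN+ cells as well as in PDPN- cells. Tfrc, the transferrin receptor, at 1.18, was among the least different, and Fech and Tspo2 were the members within 2-fold, at 0.97 and 0.95. Gata1, the main erythroid and megakaryocytic factor, was 49.7-fold higher, at 8483, 4566, 856 and 155. Kcnn4, a calcium-activated potassium channel of red cells, was 54.6-fold higher, at 8723, 5051, 328 and 144, with its next probe set at 3.23.

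GATA1 acts through the letters GATA, and the start regions of 2 erythroid genes with the largest differences among those holding AGATAA are shown for that reason. Epor, the erythropoietin receptor, was at 2830 in ITGA8+, 2064 in ITGA8-, 121 in PDPN+ and 70 in PDPN- cells, and Kel, of the Kell blood group, at 5655, 4059, 506 and 161. AGATAA, or TTATCT on the other strand, was present in the 250 bases before the start for 6 of 16 erythroid genes with a window, 37.5%, and 3 of 14 megakaryocyte genes, beside 11.4% of all 27025 genes. The other lists searched had it in 5 of 24 stellate, 2 of 16 mesothelial, 2 of 17 coagulation and complement and 1 of 18 plasma protein genes. A match is a description of letters, not of a bound site, and the genes were picked from those with a match. The sequences are from RefSeq on GRCm38.p6, 5′ to 3′ on the strand of the gene, with the match in capitals. Epor lies on the minus strand at chr9:21963577-21963826 and Kel on the minus strand at chr6:41704326-41704575, and the first base of the match stands at -54 and -56 from the start.
Epor: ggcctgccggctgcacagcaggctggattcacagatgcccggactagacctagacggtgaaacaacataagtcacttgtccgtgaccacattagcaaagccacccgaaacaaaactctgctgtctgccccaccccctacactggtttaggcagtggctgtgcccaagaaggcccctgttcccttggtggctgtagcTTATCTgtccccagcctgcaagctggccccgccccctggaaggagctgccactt
Kel: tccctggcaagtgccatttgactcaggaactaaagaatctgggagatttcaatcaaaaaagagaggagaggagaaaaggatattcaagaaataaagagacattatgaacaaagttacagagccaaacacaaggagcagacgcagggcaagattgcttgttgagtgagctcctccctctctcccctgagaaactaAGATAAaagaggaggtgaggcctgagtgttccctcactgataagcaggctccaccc

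Progenitor genes followed the erythroid pattern for the most part. Of 14 above the floor 13 were higher in ITGA8+ and 1 in PDPN-, beside 27.7% and 14.2% of all genes, with a median of 3.14. All 14 were above the floor in ITGA8+ and 7 in PDPN-, so the floor itself favours that direction. Without a floor 14 of 19 were higher in ITGA8+ and 1 in PDPN-, with a median of 2.93. Tal1, a master factor of blood formation, was at 10391 in ITGA8+, 6184 in ITGA8-, 1049 in PDPN+ and 158 in PDPN- cells, and Myb at 10987, 10636, 1073 and 240. Ikzf1, Lyl1 and Lmo2 differed by 5.23, 4.70 and 4.13. Ptprc, the pan-leukocyte antigen CD45, was at 178, 131, 907 and 24 and so followed the macrophage pattern. Hlf, a PAR-family factor that hepatocytes express as well, was the member on the PDPN- side, at 512, 627, 1132 and 2293.

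Macrophage genes separated PDPN+ cells from all other fractions. Only 11 of 24 listed were above the floor in this comparison. Of these 9 were higher in ITGA8+ and none in PDPN-, with a median of 2.19, and 6 relative to the all-gene median. All 11 were above the floor in ITGA8+ and 5 in PDPN- cells, so the floor itself favours that direction, and without a floor 12 of 24 were higher in ITGA8+, with a median of 0.90. C1qb, a complement subunit of resident macrophages, was at 315 in ITGA8+, 54 in ITGA8-, 9462 in PDPN+ and 39 in PDPN- cells, and Csf1r, the receptor for macrophage colony-stimulating factor, at 427, 139, 5357 and 81. C1qa and C1qc were at 34 and 5 in ITGA8+ and at 25 and 1 in PDPN- cells, under the floor in both. The list summed to 10622 in ITGA8+, 5622 in ITGA8-, 65035 in PDPN+ and 1561 in PDPN-, and Laptm5, a lysosomal protein of many blood cells, made up 5514 of the ITGA8+ sum. The neutrophil genes S100a8, S100a9 and Camp likewise stood at 17, 36 and 25 in ITGA8+ and at 16, 33 and 4 in PDPN- cells, against 8407, 11903 and 2490 in PDPN+. Mpo, the myeloperoxidase of early granulocytes, had another order, at 2532, 1618, 1553 and 1, as did Lcn2, a siderophore-binding lipocalin, at 95, 26, 663 and 699.

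Endothelial genes were higher in ITGA8+ cells. Of 19 above the floor 16 were higher in ITGA8+ and 1 in PDPN-, beside 27.7% and 14.2% of all genes, with a median of 2.54. All 19 were above the floor in ITGA8+ and 13 were below it in PDPN-, so the floor itself favours that direction. Without a floor 18 of 22 were higher in ITGA8+ and 1 in PDPN-, with a median of 2.35. Stab2, a scavenger receptor of sinusoidal endothelium, was at 1600 in ITGA8+, 935 in ITGA8-, 526 in PDPN+ and 56 in PDPN- cells, and Flt4, the receptor VEGFR3, at 2152, 2688, 2137 and 95. Lyve1, a hyaluronan receptor, was at 690, 729, 195 and 77. The defining markers Pecam1 and Cdh5 were under the floor in both fractions, at 74 and 107 in ITGA8+ and at 2 and 10 in PDPN- cells. Gpr182 was the member higher in PDPN- cells, at 177, 263, 278 and 763. Their part in the differences of other groups was not tested.

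**Figure D4:**
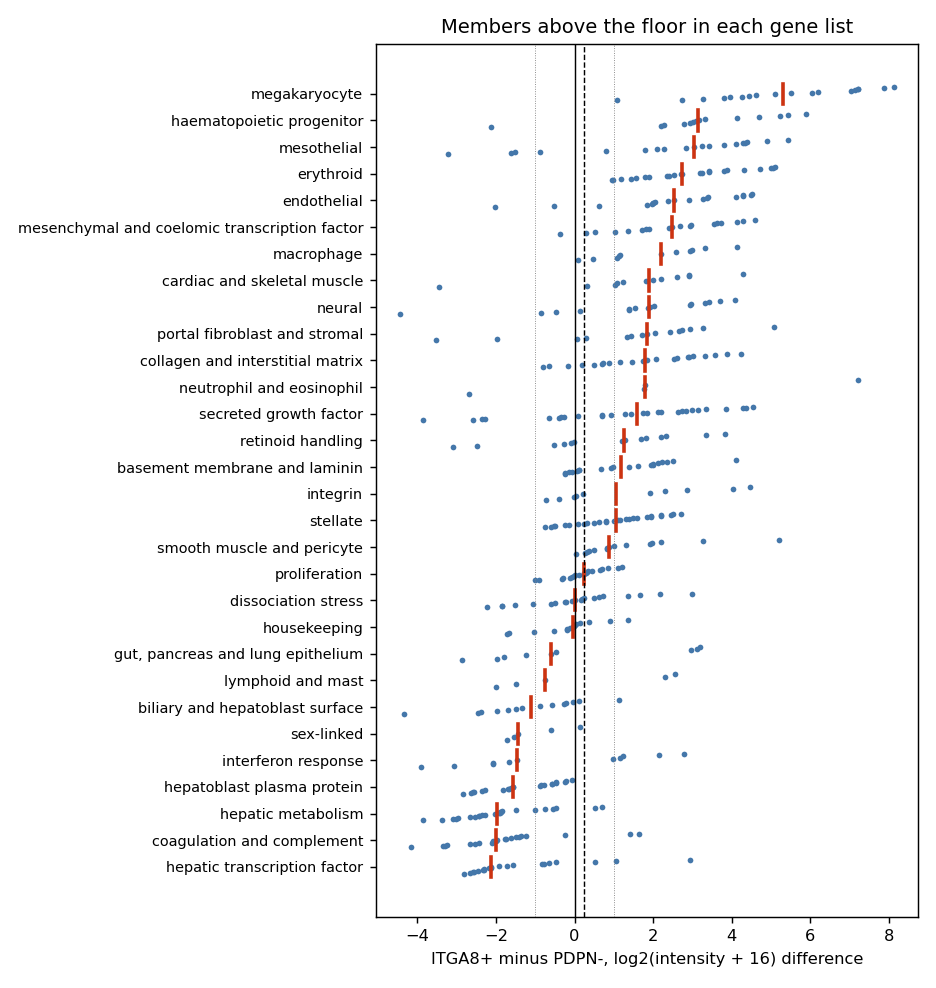
Difference of each list member above the floor, ITGA8+ minus PDPN- on the log2 scale, by gene list ordered by its median (red bar); dotted lines mark 2-fold and the dashed line the median of all genes, 0.25. Megakaryocyte, progenitor, erythroid, mesothelial and mesenchymal lists lie to the right, lymphoid and mast cell genes have a median of -0.74, the stellate list is centred at 1.07, and the 4 hepatic lists are centred between -1.57 and -2.12.

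The partner fractions, ITGA8- and PDPN+, give a second comparison between the sorts that shares no array with the first; it was added after the data were seen. Over 13196 genes, 1150 were at least 2-fold higher in ITGA8-, 8.71%, and 867 at least 2-fold higher in PDPN+, 6.57%. Of 3517 genes in this set that were higher in ITGA8+ than in PDPN-, 844 were also higher in ITGA8- than in PDPN+, which is 24.0% of the former and 73.4% of the latter list. Of 1836 that were higher in PDPN- than in ITGA8+, 581 were also higher in PDPN+ than in ITGA8-, 31.6% and 67.0% of the lists. The opposite combinations were 133 and 12 genes. A share of the difference between ITGA8+ and PDPN- thus recurred between the partners, where antigen and sort cannot be told apart.

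By list, the difference between the sorts recurred to different extents. Of 23 erythroid genes 22 were 2-fold higher in ITGA8- than in PDPN+, with a median of 2.62 beside 2.75. Coagulation and complement genes were higher in PDPN+ for 16 of 19 and metabolic genes for 12 of 19, with medians of -1.33 and -1.34. Plasma protein genes were higher in PDPN+ for 6 of 22 and hepatic transcription factors for 8 of 19, with medians of -0.73 and -0.84. Progenitor genes were higher in ITGA8- for 8 of 14, endothelial genes for 10 of 18 and neural genes for 8 of 15, with medians of 1.90, 1.36 and 1.41. None of 19 mesothelial and none of 18 megakaryocyte genes was higher in ITGA8-, with medians of -0.37 and -0.74, in contrast to 3.03 and 5.31. Mesenchymal transcription factors were between these, with 9 of 19 higher in ITGA8- and a median of 0.94, among them Twist1 at 3.12 and Foxc1 at 3.34. Stellate genes were higher in ITGA8- for 7 of 27, with a median of 0.34. All 11 macrophage genes were higher in PDPN+, whereas 9 of the 11 were higher on the ITGA8 side in the first comparison.

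**Figure D5:**
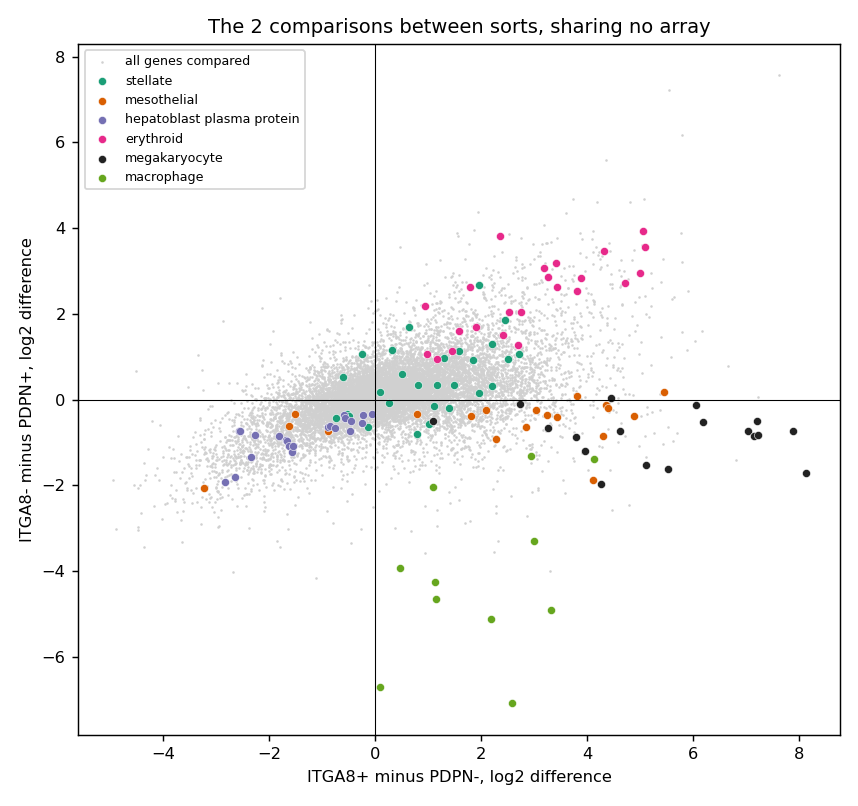
Difference between the sorts for the fractions described (ITGA8+ minus PDPN-, x axis) and for their partners (ITGA8- minus PDPN+, y axis), log2, with 6 gene lists in colour. Erythroid genes are positive on both axes and plasma protein genes negative on both, megakaryocyte and most mesothelial genes are positive on the x axis and near or below 0 on the y axis, and macrophage genes are positive on the x axis and negative on the y axis.

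Genes of basic cell function differed less, with exceptions. Of 20 proliferation genes 2 were 2-fold higher in ITGA8+ and none in PDPN-, with a median of 0.24; Mcm5 and Mcm2, of the replicative helicase, were those 2, and neither was past 2-fold relative to the all-gene median. Of 16 housekeeping genes 12 lay within 2-fold, with a median of -0.04, Psmb2 was the lowest at -1.72, and Actb was at 26814 in ITGA8+ and 26974 in PDPN- cells. Dissociation stress genes, which respond to tissue digestion, were 2-fold higher in ITGA8+ for 4 of 21 and in PDPN- for 5, with a median of 0.02, beside 27.7% and 14.2% of all genes. Ier3 was the most different on the first side and Klf2, at -2.23, on the second.

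The agreement of separate probe sets is the only error measure within these arrays. A further probe set above the floor was present for 1409 genes higher in ITGA8+, and it had the same direction in 87.5% and was itself past 2-fold in 57.1%. For 690 genes higher in PDPN- these shares were 84.3% and 61.9%. Genes just inside and just outside the floor were alike: 240 genes within 10% above it had a median absolute difference of 1.14 and 57.9% past 2-fold, and 268 genes within 10% below it had 1.14 and 53.7%.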

How the data were processed

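Gene expression was measured on Affymetrix Mouse Genome 430 2.0 arrays from 20 ng of total RNA per sample, 1 array in each of 6 groups. The authors deposited intensity values per probe set, whole numbers on a linear scale. The tools named per the submitters' processing notes are RMA and Partek; versions and a genome build are not stated there. The 4 fraction arrays share a mean near 996 after trimming 2% at each end, and the liver and ALCAM+ arrays, on another scale, entered only the floor and alternatives. Median probe set intensity over the 4 fractions ran from 123 in PDPN- to 200 in ITGA8- cells. Whether these intensities are the output of RMA or of another algorithm was not established.

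Of 45101 probe sets, 38011 named 1 gene each, for 20678 genes; controls and probe sets naming no gene or several were left out. RefSeq symbols (GRCm38.p6), joined by Entrez identifier, matched 92.1% of them. Intensities were taken to log2(intensity + 16), with the probe set of highest mean over the 2 arrays. A gene's next probe set is its second by that mean. Close paralogs can share probes. Some genes of the lists are counted but not reported here by name. No count per sample exists, so precision is limited by the number of arrays, 1 a group.

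The pair, the 30 gene lists (611 entries, 600 measured, 6 genes in more than 1) and the alternatives were chosen with earlier results of these data known. The comparison of partner fractions, the genes specific to a sort and the motif search were added after these data were seen. Named genes were the sort markers, the 12 largest differences in each direction, the 10 largest among genes above the floor in both arrays, the 12 with the largest smaller enrichment of both sorts, and in each list up to 5 members with the largest difference and those needed for its count; further examples were chosen after their values were seen. Alternatives changed the pseudocount, floor, probe set, normalisation and fold. Scripts were tested on simulated data. Python 3.11.15, numpy 2.4.6, pandas 2.3.3 and statsmodels 0.14.6 were used.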

Additional observations from a re-analysis of the deposited data

How the results depend on the processing

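No paired analysis was possible because each group is 1 array, and no replicate could be left out. Under the 10 alternatives that give list medians, those of the stellate, mesothelial, 4 hepatic, erythroid, megakaryocyte, macrophage, progenitor and endothelial lists kept their sign. Genes higher in ITGA8+ numbered 5791 without a floor, 2426 after a loess fit and 1627 at 4-fold, and those higher in PDPN- 645 at 4-fold. Genes enriched in both sorts numbered 68 with a pseudocount of 64, 188 without a floor, 199 after quantile normalisation and 5 at 4-fold. ITGA8+ held 54.7% of the 2-fold genes with the median at 0, 48.0% after loess and 58.3% after quantile normalisation. After loess the mesothelial median was 2.36, the macrophage median 1.48, the endothelial median 1.56, the muscle median 0.60, the neural median 0.47 and the retinoid median 0.14. The megakaryocyte median was 6.15 with a pseudocount of 1 and 4.52 with 64, and the endothelial median 3.15 with 1. With probe sets without a cross-hybridisation suffix the endothelial median was 3.28 and the macrophage median 1.14. With the median of a gene's probe sets the macrophage median was 1.51 and the progenitor median 2.53. The macrophage median was 0.90 without a floor and 2.95 at 2 times the floor. Of 129 named genes past 2-fold, 15 came under it somewhere and 2 changed sign: Masp1, at -0.89 with the probe set chosen over 6 arrays or with specific probe sets only, and C6, at -0.26 after loess. The sex-linked median was 0.34 with the median of a gene's probe sets. The causes were not tested.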

Other observations

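A few genes were strong in both fractions of one sort and under the floor in both fractions of the other; the rule was set after the data were seen. With both arrays of a sort above 436, which is 4 times the floor, and both of the other sort under 109, 27 genes belonged to the ITGA8 sort and 2 to the PDPN sort. AI506816, a gene of unassigned function, was at 3752 in ITGA8+, 3762 in ITGA8-, 4 in PDPN+ and 3 in PDPN- cells. Fap, the fibroblast activation protein, was at 1539, 778, 15 and 30, and Ctse, the aspartic protease cathepsin E, at 2883, 5518, 21 and 46. Between the fractions of the ITGA8 sort AI506816 was level, while Fap and Ctse were higher in opposite fractions. Developmental transcription factors were among them: Hoxb5 was at 1997, 1395, 100 and 45, Tbx5 at 579, 539, 96 and 18, and Six4 at 837, 902, 20 and 48. The 2 genes of the PDPN sort were Lcn2, a siderophore-binding lipocalin, at 95, 26, 663 and 699, and Il1rn, the interleukin-1 receptor antagonist, at 75, 51, 481 and 876.

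Of 5 sex-linked genes, 3 that are Y-linked were lower in ITGA8+ than in PDPN- cells. Ddx3y, an RNA helicase, was at 889 in ITGA8+, 824 in ITGA8-, 2243 in PDPN+ and 2967 in PDPN- cells, and Kdm5d, a histone demethylase, at 166, 119, 495 and 513. In both genes the PDPN sort was higher, but Uty, at 36, 81, 66 and 124, did not follow that order. Eif2s3y, at 1158, 1281, 1181 and 1760, and Xist, at 13000, 12097, 12392 and 11800, lay within 2-fold. The sex of the embryos is not given in the sources used here.

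Interferon-response genes divided, with 4 of 11 higher in ITGA8+ and 6 in PDPN- cells, beside 27.7% and 14.2% of all genes. Usp18, which limits interferon signalling, was at 219 in ITGA8+, 429 in ITGA8-, 933 in PDPN+ and 3493 in PDPN- cells, and Bst2, the antiviral protein tetherin, at 164, 291, 837 and 1492. Oasl2 and Gbp2 differed by 2.79 and 2.16 in the other direction. Among muscle genes Actn2, a sarcomere protein, was at 433, 35, 94 and 7, and Tnnc1, cardiac troponin C, which was the one higher in PDPN- cells, at 764, 1190, 2179 and 8491. Of 12 muscle genes above the floor 10 were higher in ITGA8+ cells, and 5 after a loess fit. All 12 were above the floor in ITGA8+ and 4 in PDPN- cells, so the floor itself favours that direction. Without a floor 14 of 20 were higher in ITGA8+ and 2 in PDPN-, with a median of 1.28. Of 16 neural genes 12 were higher in ITGA8+, and 7 after a loess fit, led by Gabrb2, a GABA receptor subunit, at 1179, 612, 31 and 54. Here too all 16 were above the floor in ITGA8+ and only 7 in PDPN- cells. Without a floor 14 of 20 neural genes were higher in ITGA8+ and 1 in PDPN-, with a median of 1.47. Gut, pancreas and lung epithelial genes counted 3 and 4 of 9 in the 2 directions, and lymphoid and mast cell genes 2 and 2 of 5, beside 27.7% and 14.2% of all genes.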
